A study of Homo sapiens with 26 samples.

Results

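The effect of 1 h of Nutlin-3a on H3K4me1, histone H3 monomethylated at lysine 4, was described from 4 of the 26 samples of the series: the H3K4me1 peak lists of wild-type (WT) HCT116 cells at 0 h, replicates 1 and 2, and at 1 h, replicates 1 and 2. HCT116 is an established line grown from a human colorectal carcinoma, and its p53 is not mutated. The 0 h cells received DMSO, the vehicle, and the 1 h cells received Nutlin-3a for 1 h, so the groups differ by the drug and share the line. The 2 WT H3K4me1 lists at 10 h and the 10 H3K27ac lists of the series (6 WT, 4 of an HCT116 derivative labelled HCT116_RAD21, at 0 h and 1 h) were used for comparison. Per the study's methods, that line carries RAD21, a cohesin subunit, fused to an auxin-inducible degron, and the auxin analogue 5-Ph-IAA was added beforehand to degrade it. Its labels give only DMSO or Nutlin-3a, so the line, the degrader and the loss of cohesin cannot be told apart where it is set beside WT. Each list came from 1 ChIP-seq library, and nothing in the labels says whether replicates were separate cultures beyond their numbering as biological replicates. All cells belong to 1 line, so the spread between lists holds no variation between donors.

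H3K4me1 marks enhancers, the distal elements that raise transcription of genes, whether they are only primed or active. It usually spreads over broad domains that flank the more focal H3K27ac of active elements, and it thins at the centre of strong promoters, where trimethylation takes its place. Nutlin-3a blocks the binding of p53 to HDM2 (MDM2), its ubiquitin ligase, so p53 accumulates and activates genes of cell cycle arrest, apoptosis, metabolism and repair. In chromatin, p53 mostly binds sites that lie in enhancers, many of them marked before its activation. A comparison after 1 h asks which H3K4me1 domains differ at the start of the response.

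The labelled cell type was checked against marker genes. In windows of 10 kb to each side of the start sites of 12 epithelial marker genes, the median share of bases under H3K4me1 peaks was 72.3% and 69.0% at 0 h (replicates 1 and 2) and 70.1% and 66.6% at 1 h. For 16 genes of other lineages (blood, liver, muscle, stroma, nerve and endothelium) the 0 h medians were 9.13% and 5.92% and the 1 h medians 6.66% and 5.88%. PTPRC, HBB, ALB and MYH7 had no covered base in any of the 6 H3K4me1 lists, whereas the window of CD79A, a B-cell receptor subunit, was covered to between 57.6% and 66.0%.

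Sequences of GRCh37, plus strand, are shown for 2 regions of high rank among those called in both 1 h lists and in neither 0 h list (gained) or the reverse (lost), because these are among the clearest on/off differences in the lists. The first gained region is a tract of G in an intron of LINC00486, a long noncoding RNA gene, at chr2:33141295-33141711, and its middle 300 bases were 96.3% G (capitals mark bases other than G). The lost region lies between genes at chr7:1798062-1798440 with ELFN1 nearest (capitals mark CG, 3 in this window). The coordinates before each run are those of the printed bases.

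Gained, chr2:33141354-33141653: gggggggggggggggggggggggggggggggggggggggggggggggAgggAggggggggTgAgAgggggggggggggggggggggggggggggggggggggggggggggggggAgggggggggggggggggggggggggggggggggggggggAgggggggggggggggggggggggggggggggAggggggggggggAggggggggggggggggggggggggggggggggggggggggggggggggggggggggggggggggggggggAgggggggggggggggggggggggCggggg
Lost, chr7:1798102-1798401: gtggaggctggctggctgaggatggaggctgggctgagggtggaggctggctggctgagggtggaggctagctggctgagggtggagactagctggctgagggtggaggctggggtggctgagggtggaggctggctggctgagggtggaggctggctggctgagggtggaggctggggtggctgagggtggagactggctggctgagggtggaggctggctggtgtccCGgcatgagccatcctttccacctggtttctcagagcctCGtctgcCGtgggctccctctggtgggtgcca

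A further pair of stretches bears on what follows. The first is from the strongest gained region that holds a p53 response element, searched on both strands as 2 exact half-sites of the p53 consensus with 0 to 13 bases between them, in a gained region at chr9:39945209-39948467. The element, in capitals, spans chr9:39946903-39946932, 30 bases. The other is from chr7:157943781-157944550 in an intron of PTPRN2, a protein tyrosine phosphatase gene, where the highest −log10 p-value of both 1 h lists was found, and a stretch of 22 bases that occurs 3 times is in capitals.

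p53 element, chr9:39946819-39947018: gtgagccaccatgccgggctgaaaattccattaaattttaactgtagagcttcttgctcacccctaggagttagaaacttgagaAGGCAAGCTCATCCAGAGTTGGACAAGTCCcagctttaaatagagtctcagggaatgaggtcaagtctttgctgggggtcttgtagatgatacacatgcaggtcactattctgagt
PTPRN2 repeat, chr7:157943831-157943930: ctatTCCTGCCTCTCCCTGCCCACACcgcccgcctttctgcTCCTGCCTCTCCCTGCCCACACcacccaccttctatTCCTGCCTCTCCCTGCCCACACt

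The 1 h lists covered more of the genome with a like number of peaks. Replicates 1 and 2 held 91730 and 86207 peaks at 0 h and 92943 and 86750 at 1 h, so the number of peaks overlapped between the groups. These peaks covered 195.9 and 177.6 Mb at 0 h and 211.6 and 198.2 Mb at 1 h, against 167.6 and 187.6 Mb at 10 h. The covered length was 186.7 ± 12.9 Mb (SD, n = 2) at 0 h and 204.9 ± 9.46 Mb (SD, n = 2) at 1 h, and the groups did not overlap. Peaks were also wider in the median, 1166 and 1152 bp at 0 h against 1248 and 1269 bp at 1 h. Peaks over 10 kb numbered 2195 and 1842 at 0 h and 2481 and 2295 at 1 h. An exact permutation test of 2 lists against 2 cannot go below a two-sided p of 0.333, and no other test of these single values was run.

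Measures of background moved with time too. The median peak fold, pileup relative to the caller's local estimate, was 3.78 and 3.84 at 0 h but 3.15 and 3.65 at 1 h. A rough local background recovered from the fold and p-value of 1500 narrow peaks per list had a median of 3.39 and 2.79 reads at 0 h, 5.39 and 3.69 reads at 1 h and 2.39 and 2.69 reads at 10 h. The lists hold no read counts, so depth itself was not measured, and a greater depth or background of the 1 h libraries and the effect of the hour in Nutlin-3a cannot be told apart by list length alone. The highest −log10 p-value was 133 and 113 at 0 h and 641 and 404 at 1 h, where both lay at the PTPRN2 repeat shown above.

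**Figure D1:**
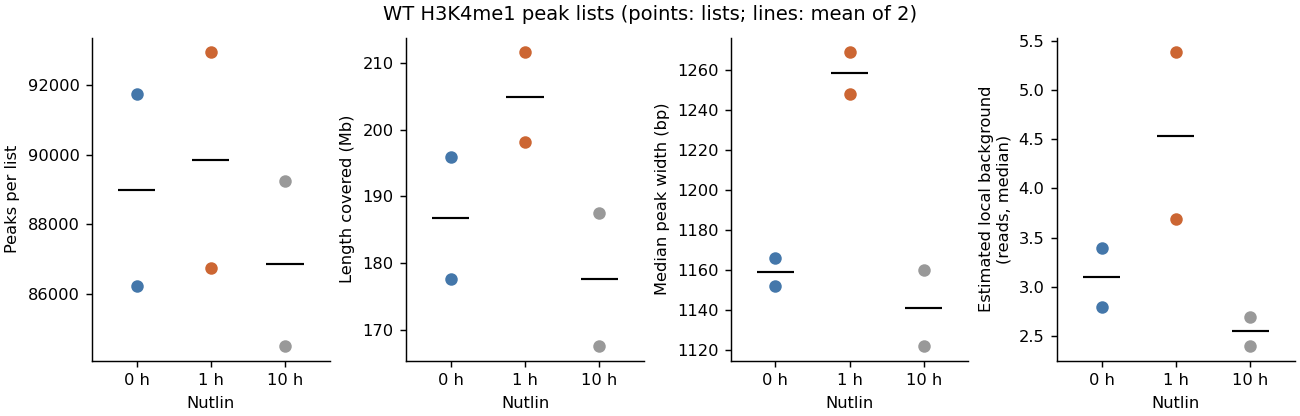
Peaks per list, covered length (Mb), median peak width (bp) and estimated local background (reads) of the 6 WT H3K4me1 lists at 0, 1 and 10 h of Nutlin, each point 1 list and each line the mean of 2. The 1 h lists sit above the 0 h lists in length, width and background, and overlap them in the number of peaks.

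Most of the H3K4me1 landscape was common to both times. The base-pair Jaccard index, shared bases over bases in either list, was 0.775 between the 0 h lists, 0.742 between the 1 h lists and 0.718 to 0.736 between a 0 h and a 1 h list. For 0 h against 10 h it ranged from 0.732 to 0.775. The shares of covered bases by class differed little: coding promoters (1000 bases before to 200 after a start site) took 7.57% and 7.95% at 0 h and 7.48% and 7.89% at 1 h, introns 60.7% and 60.2% against 61.0% and 60.7%, and intergenic sequence 23.1% and 23.1% against 22.8% and 22.7%.

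Peaks of the 6 lists were merged where they overlapped into 110269 regions, and an overlap of 1 bp with a peak sufficed to call a region in a list. Of these, 65067 were called in all 4 lists at 0 h and 1 h. Gained regions numbered 3635 (3.3% of all regions) and lost regions 1932 (1.75%). A further 1802 to 8300 regions were called in 1 list alone, the most in 1 h replicate 1 (8300) and the fewest in 0 h replicate 2 (1802), the longest and the shortest of the 4 lists. The excess of gained over lost regions depended on how the lists were matched. With every list shortened to the same covered length by dropping the peaks with the lowest p-value ranks, 305 regions were gained and 4451 lost. That kept 60.8% and 81.1% of peaks at 0 h but 50.8% and 59.8% at 1 h, where peaks are wider. It thus left fewer peaks at 1 h than at 0 h, and it does not single out depth. With every list cut to the same number of peaks instead, 3398 regions were gained and 2004 lost. Between 1 h replicate 2 and 0 h replicate 1, which cover nearly the same length, 10089 regions were called at 1 h alone and 12160 at 0 h alone. With 1 list left out, fewer lists have to agree and the counts rise: gained and lost were 6914 and 3734 without 0 h replicate 1, 5195 and 7062 without 0 h replicate 2, 7972 and 4788 without 1 h replicate 1, and 11935 and 3487 without 1 h replicate 2.

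Gained and lost regions were alike in being short, weak and far from promoters. Their median length was 790 bp for gained and 608 bp for lost regions, against 2189 bp for regions called in all 4 lists. The median gained region stood at percentile 18.8 and 14.6 of the −log10 p-values of the 1 h lists (0 lowest, 100 highest), and the median lost region at 18.25 and 13.025 of the 0 h lists. The midpoint lay in a coding promoter for 54 gained regions (1.49%) and 23 lost regions (1.19%), against 4.95% of all regions. Introns held 65.6% of the gained and 57.4% of the lost midpoints against 59.1% of all, and intergenic sequence 26.9% and 34.9% against 27.9%. A start site lay within 10 kb of 18.7% of gained, 20.8% of lost and 29.8% of all regions. The median GC content of the middle 500 bases was 44% in gained and 46% in lost regions, and 46% in all. Gains made up between 2.11% of the regions of chromosome 19 and 4.28% of those of chromosome 18 among the autosomes.

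A pair of sequence motifs was searched in these sets. The letters TGANTCA (the core of an AP-1 site, both strands) were present in the middle 500 bases of 37.9% of gained and 32.3% of lost regions, and of 30.6% of all regions. In the same 500 bases the p53 response element was present in 5 gained (0.138%), 4 lost (0.207%) and 233 of all regions (0.211%). The gained region with the element printed above, chr9:39945209-39948467, covered 817 and 3138 bp in the 1 h lists and had no peak at 0 h or 10 h. SPATA31A2 is the nearest coding gene, 61863 bp away, in a part of chromosome 9 rich in near-identical copies, where reads are hard to place. The next, at chr18:18844369-18845031 in an intron of GREB1L, covered 593 and 663 bp at 1 h with −log10 p-values of 4.14 and 4.24 and was likewise not called at 10 h.

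Few gained regions were called at 10 h. Of the 3635 gained regions 346 (9.52%) were called in both 10 h lists and 2495 (68.6%) in neither, against 62.6% and 22.9% of all regions. Of the 1932 lost regions 578 (29.9%) were called in both 10 h lists and 674 (34.9%) in neither. The 10 h lists are shorter than the 1 h lists, so their calls follow list length as well as time, and the part of each was not tested.

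The G tract in LINC00486 led the gained regions by a wide margin. Its peak had a −log10 p-value of 210 and 184 in the 1 h lists, percentile 100.0 of each, and no peak in the 0 h or 10 h lists of either mark. Both WT H3K27ac lists at 1 h also called it, as did all 4 H3K27ac lists of the RAD21 line, at 0 h as well as at 1 h. It was therefore called in 4 of 4 WT lists at 1 h, 0 of 8 WT lists at 0 h and 10 h, and 4 of 4 lists of the RAD21 line, which include cells without Nutlin. A contribution of the libraries and one of the drug cannot be told apart in the WT lists. The other gains given here were modest. An intergenic region at chr9:45740757-45742289 near FAM27E2 had −log10 p-values of 12.3 and 12.1 at 1 h, in another copy-rich stretch.

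The last pair of named gains carried H3K27ac. A region at chr2:73788282-73788610 in an intron of ALMS1, a gene of the centrosome and cilium, had −log10 p-values of 13.8 and 9.26 at 1 h, was called in both 10 h lists (7.83 and 11.05), and had an H3K27ac peak in all 10 lists. A region at chr2:44815389-44816555 in an intron of CAMKMT, the calmodulin lysine methyltransferase gene, had 11.02 and 8.78. Its H3K27ac was called in both WT lists at 1 h, in no WT list at 0 h or 10 h, and in all 4 lists of the RAD21 line, the same list pattern as the G tract. The GC content of its middle 500 bases was 80.8%.

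Of the 3 losses given here, 2 were called again in both 10 h lists. The region near ELFN1 had −log10 p-values of 12.9 and 8.48 at 0 h and 6.27 and 9.64 at 10 h. A region at chr12:102609810-102610414 in an exon of the noncoding gene HELLPAR had 8.27 and 10.1 at 0 h and 3.71 and 7.06 at 10 h. The third, at chrY:13626623-13626889 and far from any coding gene, had 13.1 and 7.27 at 0 h and no peak at 1 h or 10 h.

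Merged domains outnumbered split ones. In regions called in all 4 lists, a merged region had fewer peaks in each 1 h list than in either 0 h list, and a split region more. Merged regions numbered 1867 (2.87% of 65067) and split regions 257 (0.395%). With peaks within 1 kb of each other joined first, the counts were 1306 and 330, and with all lists at equal covered length they were 1452 and 107. Leaving out any of the 4 lists raised both counts, to between 2992 and 3892 merged and between 475 and 962 split, and with 1 h replicate 2 against 0 h replicate 1 they were 4633 and 1967. Merging exceeded splitting in each of these settings. Since merged regions are long (median 6079 bp, and 1490 of the 1867 in the highest quartile of region length), their position is not independent of their length: 60.2% were within 10 kb of a coding start site and 273 (14.6%) had their midpoint in a coding promoter, against 36.0% and 7.43% of the regions called in all 4 lists. Split regions had a median of 8608 bp, and 44.4% were within 10 kb of a start site. H3K27ac peaks lay in 76.2% and 76.4% of merged regions in the WT 0 h lists and in 77.3% and 78.7% at 1 h. For split regions these shares were 77.0% and 79.4%, then 79.8% and 79.8%. For all regions called in all 4 lists they were 39.0% and 39.4%, then 39.5% and 40.5%.

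The 4 merged domains named by peak number all covered more bases in both 1 h lists than in either 0 h list. The domain in TMOD3, which encodes an actin filament capping protein, at chr15:52120477-52178813, had 5 and 5 peaks at 0 h and 1 and 2 at 1 h, while its covered length went from 51950 and 49455 bp to 58195 and 57107 bp. At 10 h it had 4 and 2 peaks. The domain in PACSIN2, a gene of membrane curvature, at chr22:43324975-43380203, had 6 and 7 peaks at 0 h, 1 and 3 at 1 h, and 8 and 7 at 10 h. The domain of KLF16, a zinc finger transcription factor gene, at chr19:1835221-1877342, had 6 and 6 peaks at 0 h and 3 and 2 at 1 h. The domain over the promoter of FKBP2, a prolyl isomerase gene, at chr11:63990786-64025380, had 5 and 6 peaks at 0 h and 2 and 2 at 1 h, covering 29166 and 26653 bp and then 32927 and 32842 bp, and it ranked lower at 1 h (rank change −0.87, SE 0.16, limma adjusted p = 0.0269, from the rank fit described further on).

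The 4 split domains named by the same rule all covered fewer bases in both 1 h lists than in either 0 h list. The domain of MKNK2, which encodes a kinase of the cap-binding protein eIF4E, at chr19:2018801-2070695, went from 2 and 1 peaks to 5 and 4, and from 50794 and 51827 bp to 45341 and 45737 bp. A domain at chr17:45566976-45592586 near NPEPPS, an aminopeptidase gene, went from 1 and 2 peaks to 4 and 4. A domain at chr21:33818487-33842284, in an intron of CFAP298-TCP10L with EVA1C nearest, went from 1 and 1 to 3 and 3. The domain of TFAP2A, a transcription factor gene of epithelium and neural crest, at chr6:10399859-10412452, also went from 1 and 1 peaks to 3 and 3 while its strongest peak moved from percentile 53.8 and 51.5 to 84.5 and 77.9 (rank change 0.96, SE 0.21, limma adjusted p = 0.0524).

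Widening outnumbered narrowing in the same way. Among the 65067 regions, the bases under peaks were more in both 1 h lists than in either 0 h list for 19418 (wider, 29.8%) and fewer for 8103 (narrower, 12.5%). At equal covered length the counts were 11906 and 5143, and with 1 list left out they ranged from 27214 to 34034 and from 12715 to 19819. Between 1 h replicate 2 and 0 h replicate 1, of nearly the same length, 37092 were wider and 34056 narrower, so the excess shrank but kept its direction. Wider regions made up 26.1% of the lowest quartile of region length and 32.9% of the highest, and 32.8% of the lowest quartile of GC content and 28.7% of the highest. By class the share was 27.2% for intergenic and 31.0% for intronic midpoints. Where H3K27ac was called in both WT 1 h lists and neither WT 0 h list (1097 of these regions), 38.7% were wider and 8.75% narrower. Where it was called in both 0 h lists and neither 1 h list (832 regions), 19.2% were wider and 22.7% narrower.

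**Figure D2:**
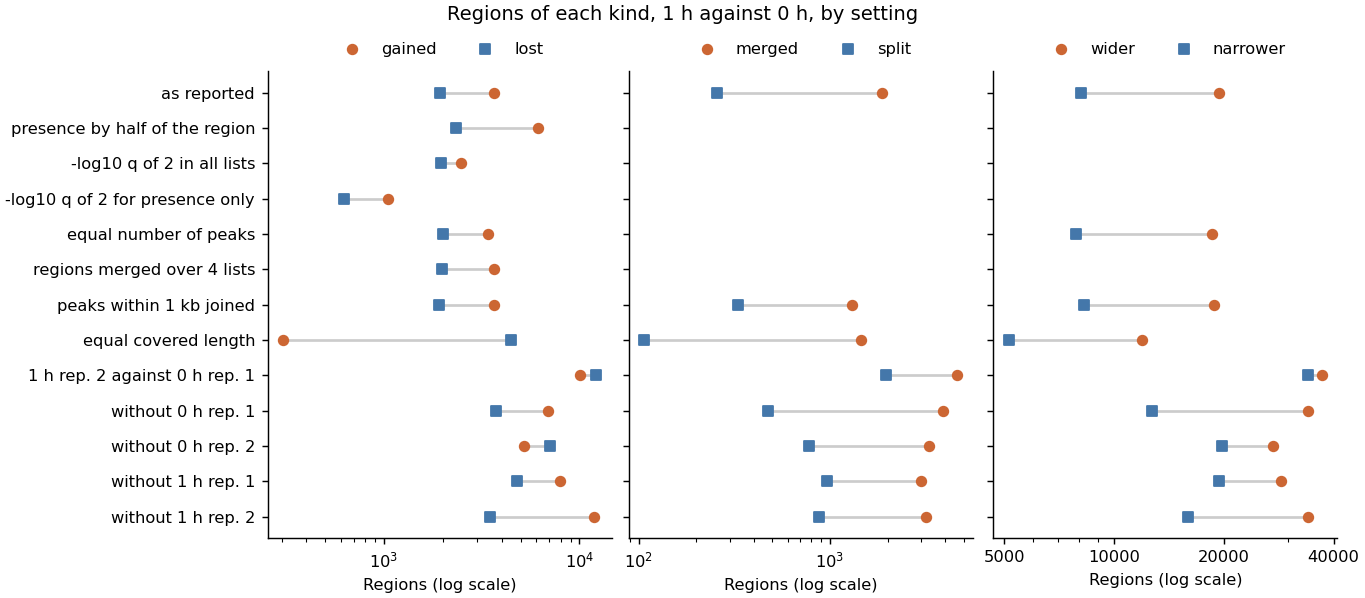
Number of gained and lost, merged and split, and wider and narrower regions (log axes) as reported and under each other setting, joined by a line where a setting gave both. Merged exceed split and wider exceed narrower regions in every row, whereas gained and lost trade places at equal covered length, for the single pair of lists of like length and without 0 h replicate 2.

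No single region reached the threshold for width. In a limma fit over the 60476 regions called in all 6 lists, with log2 covered bp as the value, 0 regions had an adjusted p under 0.05 in either direction (0.0% and 0.0%). At an unadjusted p under 0.05 there were 6179, of which 4974 were wider and 1205 narrower, and the smallest adjusted p was 0.204. The median change over all regions was 0.08 on the log2 scale. With each list centred on its own median it was −0.06, and the regions at an unadjusted p under 0.05 were 3063 wider and 3255 narrower. The excess of wider regions thus turned, but this centring took off more than the median change of 0.08. The turn therefore cannot show whether regions widened.

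The regions with the smallest p-values for width are given as values. The largest relative increases in covered length among these 10 were in RGS5, a regulator of G-protein signalling (617 and 499 bp at 0 h, 4439 and 3653 bp at 1 h), and in RAD51B, a gene of homologous recombination (1076 and 1127 bp, then 4105 and 3991 bp). At GTF2H2, a TFIIH subunit gene with a near-identical copy, 2224 and 2124 bp became 6672 and 5883 bp. Regions near FOXD4L4, also in a copy-rich part of chromosome 9, and near HHIP, an inhibitor of hedgehog, went from 2282 and 2384 bp to 6184 and 6601 bp and from 783 and 861 bp to 2796 and 2837 bp. Among the decreases, the region in SUMO2, a ubiquitin-like modifier gene, went from 5163 and 5002 bp to 2124 and 2042 bp. The region near AKAP13 went from 1646 and 1822 bp to 322 and 285 bp, and that in ASB15 from 1970 and 1832 bp to 608 and 573 bp. Regions in NPEPPS and near NCKAP5 went from 2482 and 2659 bp to 648 and 819 bp and from 3785 and 3493 bp to 1459 and 1586 bp. The groups did not overlap in any of these 10 regions, which the choice by smallest p favours, and each had a limma adjusted p of 0.204.

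Rank changes were found at a small number of regions. Within each list, a region's strongest peak was ranked by −log10 p-value, which sets aside the scale of the library, and normal scores of the ranks (1 unit is 1 SD of the ranks) were fitted with limma over the same 60476 regions and 6 lists. At an adjusted p under 0.05, 176 regions (0.291%) ranked higher and 184 (0.304%) lower at 1 h, while 9401 regions (15.6%) had an unadjusted p under 0.05. The calls depended on having all lists. Without 0 h replicate 1 there were 14 higher and 5 lower calls, without 0 h replicate 2 there were 15 and 12, without 1 h replicate 1 there were 13 and 39, and without 1 h replicate 2 there were 10 and 18. A fit to the 4 lists at 0 h and 1 h called 125 and 97, and ranking by fold instead of p called 2 and 4.

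The regions that ranked higher differed from those that ranked lower in more than rank. The median percentile, which follows from the choice, went from 64.5 and 59.4 to 90.3 and 89.7 in the higher set and from 89.6 and 88.1 to 67.1 and 60.7 in the lower set. At 10 h, which shares the fit but not the contrast, it was 65.7 and 66.7 in the higher set and 82.5 and 83.2 in the lower. Of the 184 lower regions 45 (24.5%) were merged, against 3.07% of all ranked regions, and none was split. Of the 176 higher regions 2 (1.14%) were merged and 8 (4.55%) split, against 0.425% split among all ranked regions. Wider regions numbered 92 (52.3%) in the higher and 64 (34.8%) in the lower set, against 29.4%. Narrower ones numbered 20 (11.4%) and 35 (19.0%), against 12.8%. The p-value of a broad peak is an average over its length, and the part of merging in the lower ranks was not tested. A start site lay within 10 kb of 29.5% of the higher and 45.1% of the lower regions, against 37.1% of all ranked regions. TGANTCA was present in 39.8% of the higher and 26.1% of the lower regions, against 29.2% of all ranked regions.

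The highest-ranking changes upward lay in introns. In MCF2L the region chr13:113718003-113724354 had −log10 p-values of 37.5 and 27.6 at 0 h and 97.8 and 86.5 at 1 h (rank change 1.93, SE 0.16, limma adjusted p = 0.000126). In CLPTM1L, a membrane protein gene beside TERT, the region chr5:1325836-1331553 moved from percentile 63.0 and 61.7 to 99.4 and 99.3 (2.36, SE 0.21, limma adjusted p = 0.000126). It had no H3K27ac in the WT 0 h lists and had it in both at 1 h. In PRDM15, a zinc finger gene, the region chr21:43264121-43266698 moved from percentile 56.6 and 39.3 to 96.8 and 95.1 (2.06, SE 0.22, limma adjusted p = 0.00086). In GRAMD4 the region chr22:47028539-47032679 had −log10 p-values of 43.4 and 37.8 and then 85.5 and 82.5 (1.40, SE 0.15, limma adjusted p = 0.00065).

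The smallest p of all was at chr7:23949-24487, 539 bp close to the end of chromosome 7, with FAM20C, a secretory pathway kinase gene, nearest at 168751 bp. Its −log10 p-values were 19.5 and 17.2 at 0 h, 88.6 and 63.4 at 1 h and 18.5 and 24.7 at 10 h (rank change 2.36, SE 0.18, limma adjusted p = 4.96e-05). The PTPRN2 repeat, named here because it held the highest value of the 1 h lists, had −log10 p-values of 85.1 and 44.5 at 0 h, 641 and 404 at 1 h and 41.8 and 62.2 at 10 h (1.52, SE 0.25, limma adjusted p = 0.0175). Its H3K27ac was called in both WT 0 h lists and 1 h replicate 1, and in none of the other 7 lists. The lists that called it are those whose peak names lack the word input, which the other 7 carry, and the part of this was not tested. The region near the end of chromosome 7 and the repeat are both short, and the repeat is tandem, so the placing of reads there is uncertain.

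Downward changes included long domains at the top of the untreated lists. The domain of ZFPM1, a cofactor of GATA factors, at chr16:88515321-88530422, had the highest −log10 p-value of 0 h replicate 2, 113, and 123 in replicate 1, against 45.5 and 44.6 at 1 h and 60.8 and 108 at 10 h (−1.97, SE 0.20, limma adjusted p = 0.000549). It had 3 peaks in each 0 h list and 1 and 2 at 1 h. The domain near HYPK, a chaperone of the N-terminal acetyltransferase, at chr15:44083315-44095678, went from 3 and 3 peaks to 1 and 1 and from percentile 98.7 and 98.6 to 73.5 and 65.5 (−1.90, SE 0.19, limma adjusted p = 0.000529). The domain near NR2F6, an orphan nuclear receptor gene, at chr19:17334872-17362620, had −log10 p-values of 80.1 and 66.7 and then 27.2 and 37.8 (−1.45, SE 0.18, limma adjusted p = 0.00326). Without 0 h replicate 1 its adjusted p was 0.0773.

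The others were single peaks that did not fuse. In AIMP2, a scaffold gene of the tRNA synthetase complex, the region chr7:6053481-6056556 moved from percentile 87.4 and 88.1 to 37.4 and 26.3, with 1 peak in every list (−2.15, SE 0.21, limma adjusted p = 0.000529). At a promoter of the noncoding gene LINC01198, the region chr13:47043500-47044492 moved from percentile 75.0 and 64.0 to 10.1 and 5.99 (−2.56, SE 0.31, limma adjusted p = 0.00262), and without 0 h replicate 1 the adjusted p was 0.0931. Both stood between these levels at 10 h, with 73.1 and 69.5 for AIMP2 and 39.8 and 53.6 for LINC01198.

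**Figure D3:**
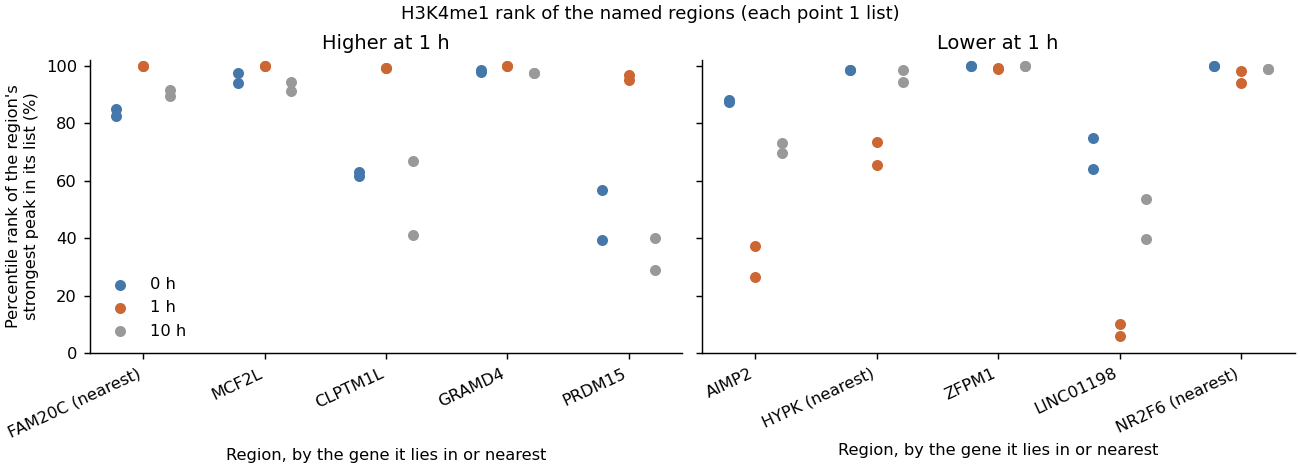
Percentile rank of the strongest H3K4me1 peak of each named region in its list (vertical axis, 0 to 100%), for the 5 regions with the smallest p in each direction, each point 1 list, coloured by hours of Nutlin. The 1 h points lie apart from the 0 h points in all 10 regions, which the choice by smallest p favours. The 10 h points of CLPTM1L and PRDM15, between 29.0 and 66.7, lie far below those of 1 h.

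H3K27ac, measured in other libraries that the choice of these regions did not use, differed in the same direction. Of the 176 regions that ranked higher by H3K4me1, 42.0% and 42.0% had an H3K27ac peak in the WT 0 h lists and 58.0% and 58.5% in the WT 1 h lists. Of the 184 that ranked lower, 62.5% and 60.9% had it at 0 h and 45.7% and 52.7% at 1 h. Over all 60476 ranked regions the shares were 41.8% and 42.2%, then 42.4% and 43.3%. H3K27ac was called in both WT 1 h lists and in neither 0 h list for 1210 of all regions (1.1%), and the reverse for 894 (0.811%). In the higher set these counts were 17 (9.66%) and 0, and in the lower set 0 and 16 (8.7%), against 1.79% and 1.35% of the ranked regions. The second WT H3K27ac list at 1 h covers 59.5 Mb against 30.7 to 31.9 Mb in the other 3, whose peak names lack the word input that all other lists carry. With 1 h replicate 1 alone set against both 0 h lists, 24 higher regions (13.6%) had gained a call and 0 had lost one. In the lower set 1 (0.543%) had gained and 28 (15.2%) had lost a call. Of all ranked regions, 2275 (3.76%) had gained and 1530 (2.53%) had lost one.

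The RAD21 line, with libraries of its own, was described in the same way. H3K27ac was called in 39.8% and 47.7% of the higher set at 0 h and 59.7% and 59.7% at 1 h, and in 58.2% and 58.7% and then 48.9% and 51.6% of the lower set. Over all ranked regions its shares were 39.8% and 40.5%, then 44.9% and 44.6%. Calls in both 1 h lists and neither 0 h list numbered 19 (10.8%) in the higher set and 4 (2.17%) in the lower, against 3.88% of ranked regions, and the reverse numbered 1 (0.568%) and 13 (7.07%), against 0.928%. These shares are descriptions and were not tested.

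Gained and lost regions were rarely acetylated in any list. Over all regions the H3K27ac shares were 23.6% and 23.7% at 0 h, then 23.9% and 24.8%, in WT. In the RAD21 line they were 23.1% and 23.7%, then 25.5% and 25.4%. H3K27ac was called in 1.05% and 0.715% of gained regions in the WT 0 h lists and in 2.28% and 3.33% at 1 h, but in 3.49% and 4.07% at 0 h and 2.78% and 2.89% at 1 h in the RAD21 line. In lost regions the WT shares were 2.64% and 2.43% at 0 h, then 1.09% and 1.40%, and 2.95% and 2.64%, then 1.24% and 1.97%, in the RAD21 line. In the 19418 wider regions the WT shares were 37.4% and 37.7% at 0 h, then 40.1% and 40.4%, and in the 8103 narrower regions 40.4% and 41.4%, then 38.4% and 38.9%.

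**Figure D4:**
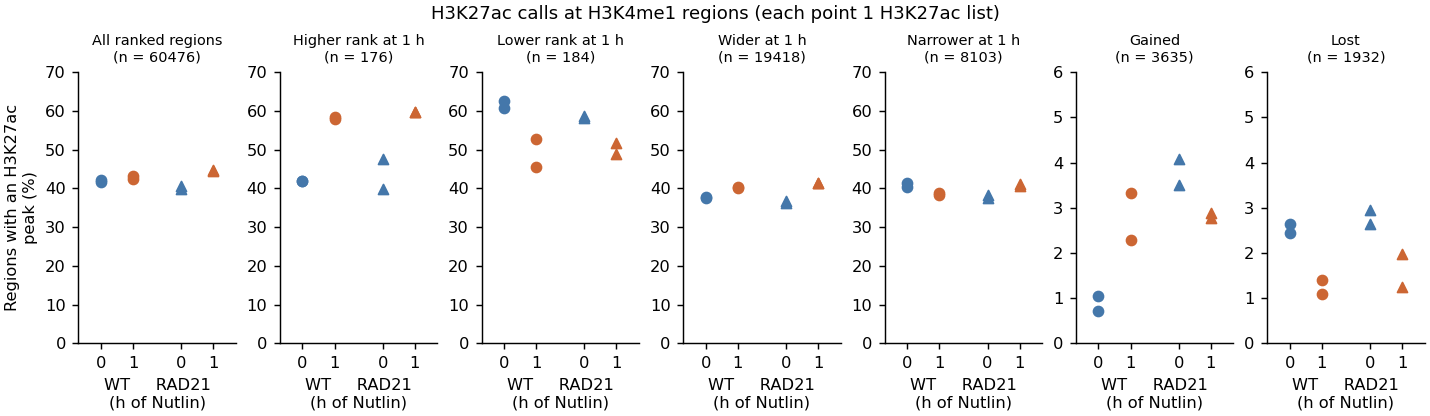
Share of H3K4me1 regions with an H3K27ac peak (vertical axis, %, with a scale of its own for gained and lost regions) in each WT list (circles) and each list of the RAD21 line (triangles) at 0 h and 1 h of Nutlin. In regions of higher H3K4me1 rank the 1 h lists of both lines lie above their 0 h lists, and in regions of lower rank below them.

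Around coding genes, more windows were higher than lower at 1 h, mostly by small amounts. For 16603 coding genes, the share of the window of 10 kb to each side of the start site under H3K4me1 peaks was higher in both 1 h lists than in either 0 h list for 5556 (33.5%) and lower for 1533 (9.23%). The median difference was 1.46 percentage points. In the limma fit 0 genes were called in either direction (0.0% and 0.0%), with 2069 at an unadjusted p under 0.05 (1835 higher, 234 lower). With each list centred on its mean these were 1026 higher and 804 lower with a median difference of −0.63 points, and at equal covered length 1166 and 723. Windows of 50 kb to each side gave 67 higher calls and 0 lower ones.

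The 10 genes named whatever their values varied around that shift. CDKN1A, which encodes the cyclin-dependent kinase inhibitor p21, was covered to 64.4% and 57.3% at 0 h, 69.1% and 64.8% at 1 h and 76.3% and 80.3% at 10 h (change 6.11 points, SE 3.68, limma adjusted p = 0.574). Its 1 h values lie just above those of 0 h, and the 10 h values above both. MDM2, the negative regulator of p53, had 63.7% and 54.9% at 0 h, 66.2% and 50.8% at 1 h and 77.4% and 87.7% at 10 h, so its groups overlapped at 1 h. FAS, a death receptor gene, had 20.4% and 26.1% at 0 h and 32.1% and 32.2% at 1 h (8.90 points, SE 3.37, limma adjusted p = 0.375), with 17.6% and 24.8% at 10 h.

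Of the remaining 7 genes, 3 stood higher at 1 h without overlap. TGFA, an EGF receptor ligand, went from 59.8% and 50.8% to 65.6% and 67.6%, PLK2, a polo-like kinase gene, from 33.0% and 29.7% to 38.0% and 33.9%, and JAG2, a Notch ligand, from 71.1% and 64.3% to 71.4% and 73.4%. At equal covered length the change of TGFA, 11.3 points, turned to −1.52 and that of PLK2 went from 4.58 to 1.68 points. BTG2, an antiproliferative gene, had 20.9% and 19.5%, then 23.02% and 15.5%. SESN1, a stress-induced regulator of mTORC1, had 18.4% and 12.5%, then 14.1% and 10.9%. BBC3, the gene of the BH3-only protein PUMA, had 77.6% and 67.8%, then 71.4% and 60.2%. In these 3 the groups overlapped. The change turned from −6.87 to 0.58 points at BBC3 at equal covered length, and with windows of 50 kb from −0.90 to 2.55 at BTG2, from −2.91 to 0.24 at SESN1 and from −0.83 to 0.41 at MDM2. GDF15, a stress cytokine gene, was covered to 100% in every list.

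**Figure D5:**
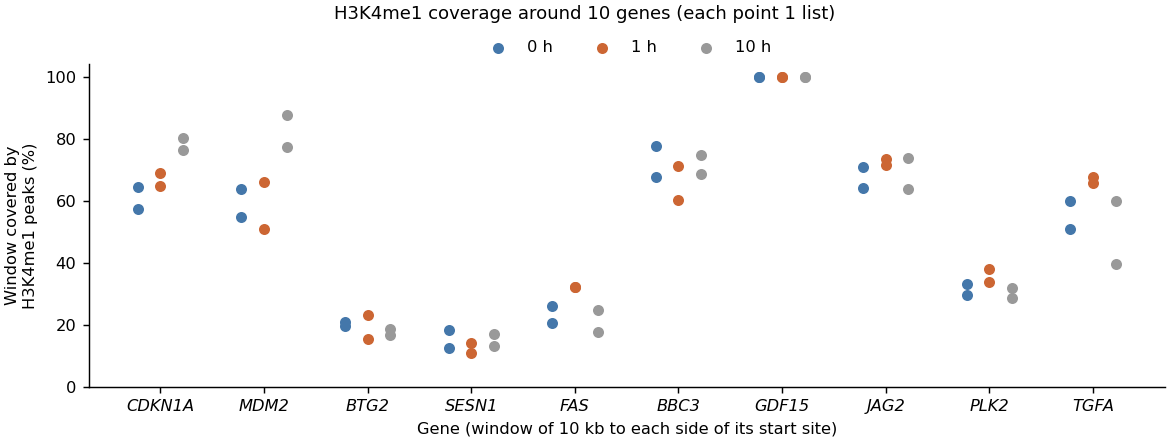
Share of the window of 10 kb to each side of the start site under H3K4me1 peaks (vertical axis, %) for 10 genes, each point 1 list, coloured by hours of Nutlin. CDKN1A and MDM2 are highest at 10 h, FAS and TGFA at 1 h, and GDF15 is at 100% throughout.

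Several of these windows held merged regions. Upstream of CDKN1A, the domain chr6:36623656-36638049 had 2 and 3 peaks at 0 h and 1 and 1 at 1 h, over 11257 and 10903 bp and then 12933 and 13785 bp. A short peak between it and the promoter, at chr6:36639594-36640200, covered 418 and 319 bp at 0 h and was called in neither 1 h list. The domain over the FAS start site, chr10:90749204-90755763, had 3 and 2 peaks over 4089 and 5219 bp at 0 h, 1 and 1 over 6422 and 6447 bp at 1 h, and 3 and 2 again at 10 h. A domain beside TGFA, chr2:70784228-70787951, went from 2 and 2 peaks over 2081 and 964 bp to 1 and 1 over 3598 and 3597 bp. The GDF15 domain, chr19:18446429-18504361, went from 4 and 4 peaks to 3 and 3. Near BBC3 a region at chr19:47739701-47742558 of 2585 and 394 bp at 0 h was lost at 1 h and called in both 10 h lists. None of the regions in these 10 windows had a rank call.

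The 5 loci with the smallest p in each direction were on none of the p53 lists, although SFN, a cell cycle target, had a smaller p than the 5 lower ones. Of those with more coverage, LBH, a developmental transcription cofactor gene, went from 3.09% and 3.02% to 14.8% and 15.8% and was back at 3.12% and 1.38% at 10 h (12.3 points, SE 1.03, limma adjusted p = 0.149). LRP1B, a lipoprotein receptor family gene, went from 15.7% and 15.2% to 40.2% and 46.5%. GTF2H2 went from 11.1% and 10.6% to 33.4% and 29.4%, which is the wide region described above. EIF2S3B, from 0% and 0% to 8.45% and 9.41%, and NPIPA8, from 8.08% and 4.42% to 21.4% and 22.4%, belong to families of near-identical copies. The adjusted p was 0.149 for each of these 5. At equal covered length the change turned from 27.9 to −6.29 points at LRP1B, from 12.3 to −1.20 at LBH and from 15.7 to −0.34 at NPIPA8, while at GTF2H2 it stayed at 20.5 points.

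Of the loci with less coverage, ENO1, the glycolytic enolase gene, went from 80.4% and 79.9% to 65.3% and 65.6% (−14.7 points, SE 2.62, limma adjusted p = 0.188). JPT1 went from 42.3% and 46.6% to 27.1% and 24.4%, in a window that takes in the narrowed SUMO2 region. THSD1 went from 5.73% and 5.87% to 0% and 0%, and had 10.8% and 9.95% at 10 h. TCAIM, of mitochondria, went from 21.1% and 23.1% to 10.9% and 9.43%, and NCR3, a natural killer cell receptor gene, from 20.1% and 17.4% to 9.33% and 9.57%. None of these 10 loci passed the threshold.

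Groups of p53 targets are read against all genes, of which 33.5% were higher and 9.23% lower without overlap and the median difference was 1.46 points. The limma fit called 0 genes of any list. Of 10 cell cycle targets 4 were higher and 2 lower (median difference 3.71 points). SFN, the gene of 14-3-3 sigma, went from 87.1% and 88.0% to 100% and 100%, and CCNG1, of cyclin G1, from 11.97% and 11.1% to 20.4% and 19.1%, while PLK3 had 90.2% and 86.0%, then 80.9% and 82.1%. Of 12 apoptosis targets 3 were higher and 1 lower (1.02 points). Among them PMAIP1, the gene of NOXA, went from 61.8% and 53.6% to 67.1% and 69.0%, BID from 26.9% and 24.8% to 34.1% and 30.7%, and the death receptor gene TNFRSF10B from 61.8% and 58.7% to 49.4% and 55.4%.

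The other p53 lists are given in the same way. Of 6 feedback genes 2 were higher and none lower (0.61 points), CCNG1 and PPM1D, the phosphatase gene, at 36.4% and 28.8%, then 39.6% and 37.9%. Of 10 metabolic targets none was higher and 2 were lower (0.04 points): SESN2, a sestrin gene, from 65.1% and 53.1% to 49.7% and 45.0%, and DDIT4, an mTORC1 inhibitor gene, from 98.8% and 92.4% to 91.9% and 85.9%. With windows of 50 kb the change at SESN2, −11.8 points, was 0.0025. Of 6 repair genes 2 were higher (POLH and XPC) and 1 lower (DDB2), with a median of −0.04 points, and XPC turned at equal covered length and DDB2 with windows of 50 kb. Of 12 other targets 5 were higher and 1 lower (2.71 points), led by TP53I11 at 31.5% and 24.1%, then 41.7% and 41.4%. Of 25 genes that the study singled out from these cells, which are no independent list, 8 were higher and 2 lower (1.33 points), among them CD9, a tetraspanin gene, at 70.9% and 60.5%, then 77.9% and 84.7%, and BRD7, a bromodomain gene, at 16.7% and 17.8%, then 37.8% and 24.7%.

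Genes outside the p53 response follow. Of 18 AP-1 and immediate early genes 5 were higher and 2 lower (1.196 points), with IER2 at 81.5% and 79.5%, then 86.2% and 88.2%, and DUSP1, a MAP kinase phosphatase gene, at 92.0% and 94.0%, then 84.8% and 89.4%, where the change of −5.86 points became 4.05 with windows of 50 kb. Of 20 Wnt and intestinal genes 8 were higher and 3 lower (2.63 points). RNF43, a ligase that removes Wnt receptors, had 87.8% and 73.0%, then 91.9% and 93.0%, GATA6 had 14.1% and 11.6%, then 20.7% and 21.3%, and NOTUM, a Wnt deacylase gene, had 78.1% and 72.2%, then 67.9% and 45.0%. Of 19 genes that write, read or erase H3K4 methylation 3 were higher and 2 lower (0.53 points), and KMT2B, a methyltransferase gene, had 25.5% and 29.2%, then 33.3% and 35.7%, a change of 7.18 points that turned to −4.43 at equal covered length. Of 20 ribosomal protein genes 4 were higher and 1 lower (1.17 points). Among the markers, 4 of 12 epithelial genes were higher and 1 lower, and 3 of the 12 tested genes of other lineages were higher and 1 lower.

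Calls of regions inside the list windows were few. A merged region lay in the windows of 9.45% of all 16603 genes. The lists held between 0 and 4 genes with one: none of the 6 repair targets or the 19 genes of H3K4 methylation, 1 of 20 Wnt and intestinal genes, 2 of 25 genes singled out by the study, 1 of 12 other targets, 1 of 10 metabolic targets, 2 of 20 ribosomal protein genes, 2 of 18 AP-1 genes, 2 of 16 genes of other lineages, 2 of 12 apoptosis targets, 1 of 6 feedback genes, 3 of 10 cell cycle targets and 4 of 12 epithelial markers. The cell cycle genes were CDKN1A, SFN and CCNG1, and KRT8 and KRT18 share 1 domain among the epithelial markers. Gained and lost regions in these windows, named after their values were seen, were gained regions at JUN, the AP-1 subunit gene (927 and 706 bp at 1 h), and at RAP2B, a small GTPase gene (600 and 364 bp), and a lost region at RPS27L (740 and 541 bp at 0 h), beside the losses near CDKN1A and BBC3. The only rank call in any list window was at ZNRF3, a ligase that removes Wnt receptors, where chr22:29276621-29283155 moved from percentile 96.9 and 94.1 to 77.6 and 80.1 (−1.05, limma adjusted p = 0.0132) while 2 and 2 peaks became 1 and 2. Over all genes, 4.0% of windows held a gained region and 2.46% a lost one, so the few in these lists do not set them apart. By rank, 0.41% of all windows held a region called higher and 0.729% one called lower.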

How the data were processed

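H3K4me1 was measured by ChIP-seq in HCT116 cells, and the 4 lists at 0 h and 1 h of Nutlin-3a were compared, with the 2 lists at 10 h in each fit. Per the study's methods, the authors trimmed paired-end reads with Trim Galore 0.6.6, aligned them with Bowtie2 2.3.2 and called peaks per sample with MACS2 2.2.7.1, in broad mode for H3K4me1, against input. The deposited values are, for each peak, a fold enrichment over the local background, a −log10 p-value and a −log10 q-value, which the authors' broad calls average over the peak. Build GRCh37 was checked against the peaks: 0 of 929607 ended past a chromosome end. Only peak lists were used here, so read depth is unknown and no interval for counting error is given.

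Peaks of the 6 H3K4me1 lists were merged into regions (minimum overlap 1 bp). Rank, width and locus coverage were fitted over all features with limma 3.58.1 (R 4.3.3, intensity trend) and adjusted by the Benjamini-Hochberg method at 0.05. Start site windows needed coverage in 2 of 6 lists. The fits were tested on simulated data with 200 changed features. The region classes were tested on separate simulated lists with known gained, lost, split and merged regions. Alternatives were presence by 50% of the region, a −log10 q-value of 2, equal covered length, equal peak number, joining within 1 kb, other scalings and windows, 4 lists, a replicate block and leaving out each list.

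The regions named were the 5 gained and 5 lost with the highest mean percentile, the 4 split and 4 merged with the largest difference in peak number, and the 5 with the smallest p in each direction of each fit. Some of the regions and sequences that this rule names are not reported here. Beyond 10 genes given whatever their values, at most 4 genes per list were named, those without overlap that differed most. The members, lists and rules were chosen with earlier results of these data known. The labels number the replicates as biological ones but name no culture, so p-values measure the spread between these lists, which may be technical. The replicate numbers of the labels were not taken to pair the lists.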

Additional observations from a re-analysis of the deposited data

Results flagged for a closer look

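The G tract on chromosome 2, in LINC00486, came up for a closer look because lists outside the H3K4me1 comparison call it as well: it has an H3K27ac peak in 4 of the 4 lists of the RAD21 line, at 0 h and at 1 h, and in none of the 8 WT lists of either mark at 0 h and 10 h. Its calls in all 4 WT lists at 1 h are thus shared with cells of another line that had no Nutlin, though that line had been given 5-Ph-IAA to degrade RAD21. What these libraries have in common was not tested.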

How the results depend on the processing

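Merged regions outnumbered split ones and wider regions narrower ones under each setting of these counts. In the limma width fit centred on the median of each list, however, 3063 regions were wider and 3255 narrower at an unadjusted p under 0.05. That centring took off more than the median change over regions, so this turn does not decide the matter. Gained regions outnumbered lost ones under all but 3 settings: equal covered length, the pair of lists of like length, and without 0 h replicate 2. Counting presence by 50% of a region gave 6137 gained regions, and a −log10 q-value of 2 for presence gave 1053 gained and 621 lost. At equal covered length there were 305 gained, 4451 lost, 107 split, 11906 wider and 5143 narrower regions. At equal peak number there were 3398 gained and 2004 lost. For 1 h replicate 2 against 0 h replicate 1, a comparison chosen after the data were seen, there were 10089 gained, 12160 lost, 1967 split, 4633 merged, 37092 wider and 34056 narrower regions. At a −log10 q-value of 2 the mean number of peaks was 75952.5 at 0 h and 74249 at 1 h, and the 1 h lists covered 193.5 Mb.

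With 1 list left out, gained regions ranged from 5195 to 11935, lost from 3487 to 7062, split from 475 to 962, merged from 2992 to 3892, wider from 27214 to 34034 and narrower from 12715 to 19819, since fewer lists have to agree. Rank calls ranged from 10 to 15 higher and from 5 to 39 lower, and width and locus calls stayed at 0. These fits assume that a lone list varies like the other groups. With 4 lists, 97 regions ranked lower, and ranking by fold left 2 higher and 4 lower, for which the cause was not tested. Windows of 50 kb called 67 loci higher, and testing all windows without the coverage filter called 18 higher and 7 lower. A replicate block called 205 regions higher and 230 lower in rank, and 0 in width and locus coverage. Lists with the same number did not deviate together (correlations from −0.111 to 0.0794), which does not settle whether they share a culture or a batch. Peak names inside the 1 h lists read 2 and 3 where the labels read 1 and 2, so the match itself is uncertain. Of the 10 regions named for rank, 5 missed the threshold when ranked by fold and 2 (at LINC01198 and near NR2F6, adjusted p = 0.0931 and 0.0773 in limma) without 0 h replicate 1, and none changed direction in these fits. Of the loci named, 9 of 61 took the other sign at equal covered length and 8 of 63 with windows of 50 kb. Depth, which the lists do not hold, limits each count of presence.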
